A study of Mus musculus with 10 samples.

Results

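The 9 genes described here encode enzymes that make heme (Alas1, Alad, Uros, Urod, Cpox, Ppox and Fech) or open its ring (Hmox1 and Hmox2). They were taken by gene identifier from the table of counts per gene, in which all 9 of 9 were found among 29883 genes. The samples were nucleus accumbens (NAc), a ventral striatal region of reward circuits, from ethanol-naive males of the inbred strains DBA/2J (D2) and C57BL/6J (B6) at 9 weeks of age. Each strain had 5 mice, 1 poly-A RNA library was made per mouse, and no mouse was treated. In this report a level is a gene's count relative to its library's TMM-scaled total, in CPM, a difference is the log2 fold change of D2 minus B6, and a gene was called at an adjusted p under 0.05 in edgeR's quasi-likelihood test across all genes.

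Heme is an iron-holding porphyrin used by hemoglobin, cytochromes and many other proteins. Its synthesis begins in the mitochondrion with aminolevulinate synthase, passes through cytosolic steps and returns to the mitochondrion, where ferrochelatase inserts iron. Heme oxygenases then open the ring to biliverdin, carbon monoxide and iron, and biliverdin reductases make bilirubin. Aminolevulinate synthase is the step usually held to limit the rate, and free heme lowers its expression in many tissues. DBA/2J mice are known to carry extra copies of a chromosome 4 segment that holds Alad. DNA copy number was not measured in these samples, so the comparison asked what the RNA of Alad and of the other enzymes showed.

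Depth was similar in all libraries, at 96977262 to 116776714 counted reads. The summed level of 8 striatal neuron markers was 3058 to 4785 CPM, and every one of the 8 was detected. The summed level of 5 cortical neuron markers was 885 and 900 CPM in B6 replicates 3 and 5, against 70.3 to 151 CPM in the other B6 mice and 203 to 556 CPM in D2, so these 2 libraries stood apart. Without them, every D2 library lay above every remaining B6 library in this sum. That fit therefore does not balance the strains for cortical markers, and calls gained or lost in it cannot be told apart from this imbalance. Values without the 2 libraries are given beside the calls that changed among named heme and iron genes and neighbours of Alad. Over all 29883 genes, 18.3% were called, 8.50% higher in D2 and 9.83% lower, and the median difference was 0.0036 on the log2 scale. Of the called genes 53.6% were lower in D2, against 45.0% with total counts as the library size and 49.6% without B6 replicates 3 and 5.

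Alad, which joins molecules of aminolevulinate into porphobilinogen and is the enzyme blocked by lead, was far higher in D2. The level of Alad was 18.2, 18.6, 16.9, 19.2 and 16.9 CPM in B6 replicates 1 to 5 and 48.7, 46.4, 46.4, 47.9 and 48.7 CPM in D2 replicates 1 to 5. Every D2 mouse lay far above the highest B6 mouse, and the spread within each strain was small. The mean was 17.9 ± 1.01 CPM (SD, n = 5) in B6 and 47.6 ± 1.16 CPM (SD, n = 5) in D2. The log2 difference was 1.41 ± 0.043 (SE), which is 2.65-fold with a 95% interval of 2.49 to 2.83, at an adjusted p of 4.5e-10 in edgeR's test. Among the 15388 genes that averaged 100 counts or more, of which 23.8% were called, Alad had rank 258 by the size of its difference. Leaving out B6 replicates 3 and 5 gave 1.35 on the log2 scale.

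Alad (ENSMUSG00000028393) lies on the minus strand of chromosome 4 at chr4:62423283-62438587 in GRCm39. Its longest coding transcript matched 1 locus of the B6 reference genome at 90% or more of length and identity, so the D2 libraries were counted against a single reference copy. No other gene of the table overlapped it. The bases just before its start are shown together with those of Hdhd3, the adjoining gene that was also higher in D2. Both sequences are the 250 bases upstream of the first listed RefSeq start, on the minus strand of GRCm38.p6, at chr4:62520064-62520313 for Alad and chr4:62502201-62502450 for Hdhd3. Capitals mark 3 short motifs on either strand. The E-box reads CACGTG. The motif called the GC box reads GGGCGG. The CCAAT box is spelled by its name.
Alad: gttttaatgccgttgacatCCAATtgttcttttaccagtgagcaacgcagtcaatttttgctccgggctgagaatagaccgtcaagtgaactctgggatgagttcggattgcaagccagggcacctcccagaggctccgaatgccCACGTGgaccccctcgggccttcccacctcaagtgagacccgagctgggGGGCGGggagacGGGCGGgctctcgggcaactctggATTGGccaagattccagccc
Hdhd3: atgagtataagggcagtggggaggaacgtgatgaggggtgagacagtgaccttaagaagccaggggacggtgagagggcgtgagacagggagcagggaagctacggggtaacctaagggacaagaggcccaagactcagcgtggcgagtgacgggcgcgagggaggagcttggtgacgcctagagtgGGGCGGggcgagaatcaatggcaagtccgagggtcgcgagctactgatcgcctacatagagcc
The Alad window held 1 E-box, whose first base was 105 bases before the start, with 2 GC boxes and 2 CCAAT boxes. The Hdhd3 window held 1 GC box and neither of the others. Of all 32851 listed windows of this length, 6.02% held an E-box, 32.7% a GC box and 33.8% a CCAAT box. Windows were listed for 7 of the members besides Fech, whose window was not searched. Of these 7, Alad, Uros and Urod held an E-box, 5 held a GC box (Alad, Alas1, Uros, Urod and Hmox2) and 3 held a CCAAT box (Alad, Urod and Ppox). TGCGCA, the core of the site bound by the transcription factor NRF1, was found in Cpox (6.43% of all windows), and TGANNNNGC, the antioxidant response element, in Uros and Cpox (35.2% of all windows). The letters AGATAA, which erythroid zinc finger factors can bind, were in none of the 7 and in 9.99% of all windows. For these members 12 windows were listed, with more than 1 for some genes such as Alad. The member counts are per gene and the percentages per window, so they are not like measures. These are matches of letters, and no factor's binding was measured.

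**Figure D1:**
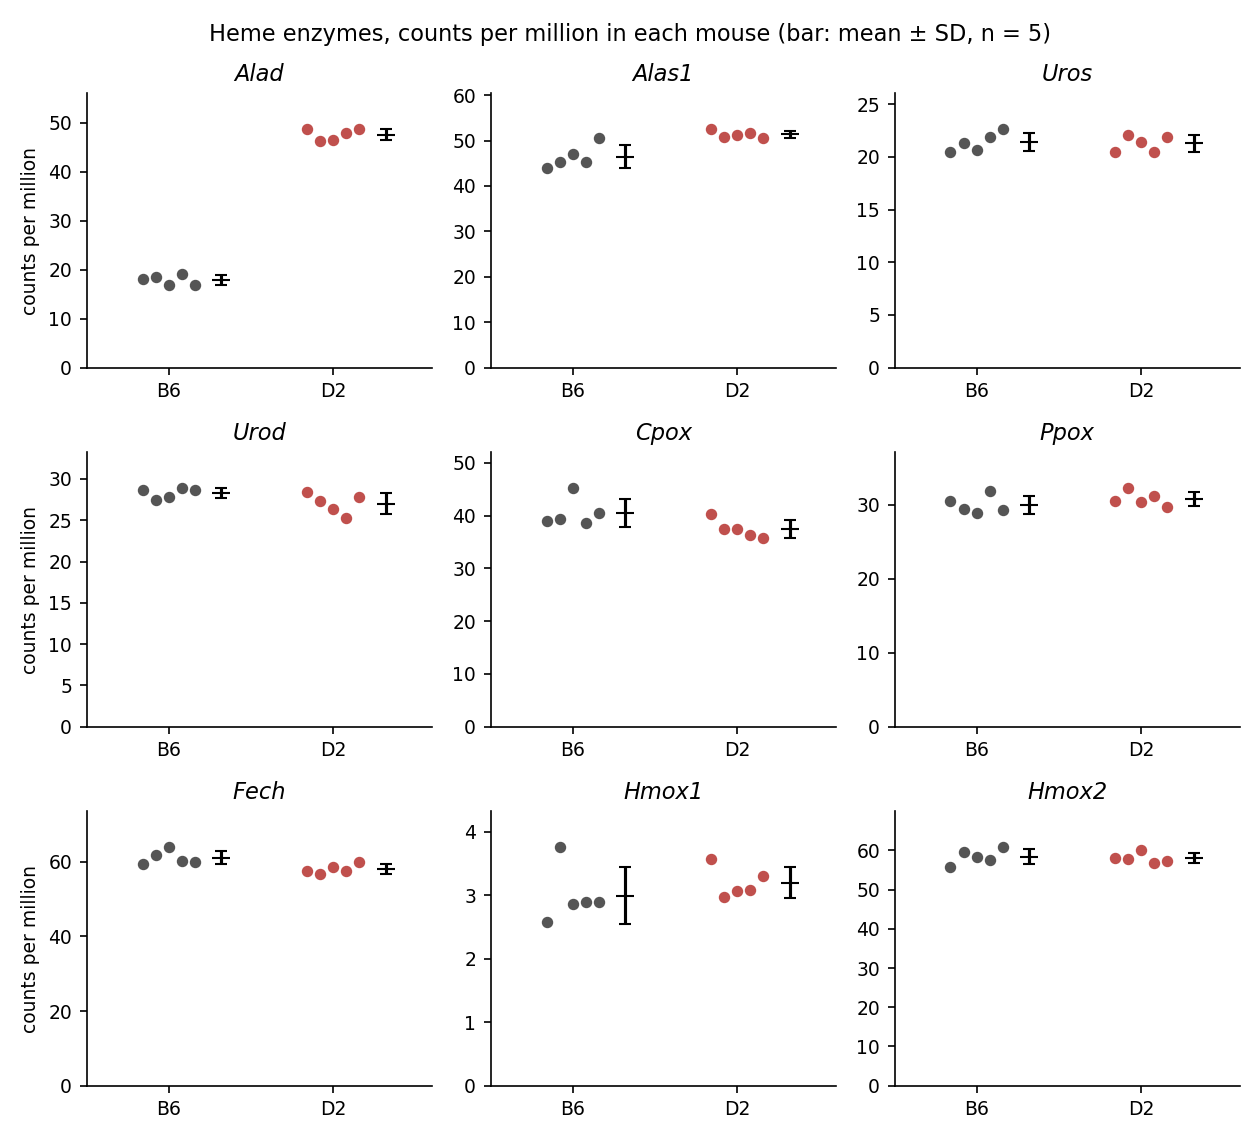
Level of each of the 9 enzymes in CPM (vertical axes, from 0) in the 5 B6 and 5 D2 mice, 1 point per mouse in replicate order, with the mean and SD as a bar. The strains separate for Alad, with B6 at 16.9 to 19.2 CPM and D2 at 46.4 to 48.7 CPM, and overlap for the other 8.

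The plot of levels by mouse shows that of the 9 enzymes, the strains did not overlap for Alad, and overlapped for each of the other 8. Over all genes the strains did not overlap for 16.0%. By the test, 2 of 9 members were called, Alad and Alas1, both higher in D2, and none was called lower, which for so few genes is near the 18.3% of all genes called. The median log2 difference of the 8 members other than Alad was -0.0091, against 0.0036 over all genes.

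Alas1, the housekeeping aminolevulinate synthase and the first enzyme of the route, was slightly higher in D2. Its level was 44.0, 45.3, 47.1, 45.3 and 50.5 CPM in B6 and 52.5, 50.9, 51.3, 51.7 and 50.4 CPM in D2. The D2 mice lay within a narrow band, 4 of them above every B6 mouse, and B6 replicate 5 was level with the lowest D2 mouse. The mean was 46.4 ± 2.52 CPM (SD, n = 5) in B6 and 51.3 ± 0.780 CPM (SD, n = 5) in D2, and the log2 difference was 0.15 ± 0.038 (SE), or 1.11-fold with a 95% interval of 1.04 to 1.17 (edgeR, adjusted p = 0.018). The call was lost without D2 replicate 3 (log2 difference 0.14, adjusted p = 0.052). Without B6 replicates 3 and 5 the difference was 0.19 at an adjusted p of 0.0012.

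The enzymes between Alad and protoporphyrinogen are cytosolic, apart from Cpox in the mitochondrial intermembrane space. Uros, which closes the ring to uroporphyrinogen III, was at 20.5, 21.4, 20.7, 21.9 and 22.6 CPM in B6 and 20.5, 22.1, 21.4, 20.5 and 21.9 CPM in D2. Its difference was -0.0086 on the log2 scale, with a 95% interval of -0.10 to 0.084 (edgeR, adjusted p = 0.93). Both strains filled the same range. Its direction changed with the scaling, to 0.023 when total counts were used as the library size. Urod, which trims the side chains to give coproporphyrinogen, was at 28.7, 27.5, 27.8, 28.9 and 28.7 CPM in B6 and 28.4, 27.3, 26.4, 25.2 and 27.9 CPM in D2. Of the D2 mice 3 lay below every B6 mouse and 2 lay within the B6 range. The log2 difference of Urod was -0.067 with a 95% interval of -0.15 to 0.019 (edgeR, adjusted p = 0.30).

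Cpox, which makes protoporphyrinogen from coproporphyrinogen, was at 39.1, 39.3, 45.2, 38.5 and 40.5 CPM in B6 and 40.3, 37.4, 37.4, 36.4 and 35.9 CPM in D2. B6 replicate 3 was the highest mouse, and 4 of the D2 mice lay below all of B6. The log2 difference was -0.11 ± 0.049 (SE) and was not called (edgeR, adjusted p = 0.15). It was called with the cortical marker level as a covariate, at -0.13 (adjusted p = 0.044), and was -0.058 (adjusted p = 0.42) without B6 replicates 3 and 5.

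Ppox and Fech act at the inner mitochondrial membrane, where Ppox oxidises protoporphyrinogen and Fech inserts iron to complete heme. Ppox was at 30.5, 29.4, 28.8, 31.8 and 29.3 CPM in B6 and 30.5, 32.2, 30.4, 31.2 and 29.7 CPM in D2. D2 replicate 2 was the highest mouse and the remaining D2 mice lay within the B6 range, with a log2 difference of 0.040 (95% interval -0.043 to 0.12, adjusted p = 0.55). Fech, on chromosome 18, was at 59.5, 62.0, 63.9, 60.3 and 60.1 CPM in B6 and 57.6, 56.8, 58.6, 57.6 and 60.0 CPM in D2. Of the D2 mice 4 lay below every B6 mouse and 1 lay within the B6 range. The log2 difference of Fech was -0.074 ± 0.031 (SE), not called (edgeR, adjusted p = 0.13).

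On the breakdown side, Hmox1 is the heme oxygenase induced by heme and oxidative stress, and Hmox2 is the constitutive form and is abundant in neurons. Hmox1 was the least counted member, with 269 to 421 reads per library. Its level was 2.58, 3.75, 2.85, 2.89 and 2.89 CPM in B6 and 3.58, 2.97, 3.06, 3.08 and 3.30 CPM in D2. B6 held both the lowest and the highest mouse, and the D2 mice lay between them. The log2 difference was 0.096 ± 0.10 (SE), with the widest interval of the members, 0.92-fold to 1.25-fold (edgeR, adjusted p = 0.61). It was 0.19 (adjusted p = 0.16) without B6 replicate 2, 0.046 without B6 replicate 1 and 0.052 without D2 replicate 1. Hmox2 was at 55.8, 59.6, 58.2, 57.6 and 60.8 CPM in B6 and 58.0, 57.8, 60.2, 56.8 and 57.4 CPM in D2. All D2 mice lay within the B6 range, with a log2 difference of -0.0097 (95% interval -0.080 to 0.060, adjusted p = 0.89) that became 0.022 with total counts as the library size.

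**Figure D2:**
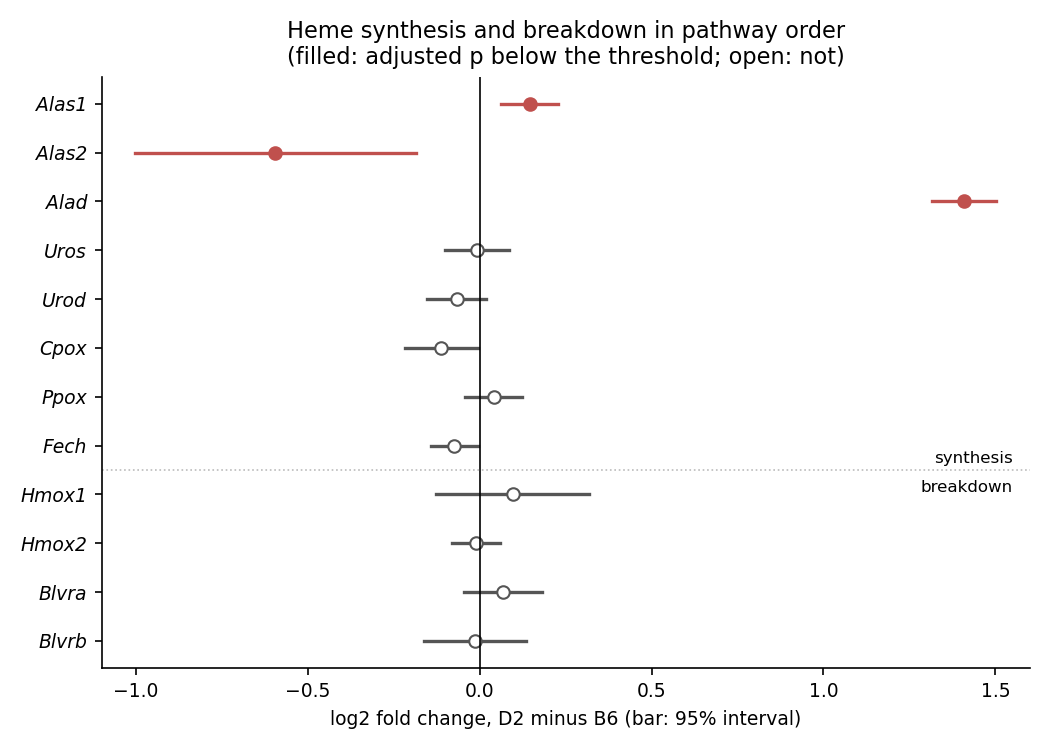
Log2 fold change of D2 minus B6 (horizontal axis) with its 95% interval for the reported enzymes in the order of the route, synthesis above and breakdown below the dotted line. Filled points passed the test, at 1.41 for Alad, 0.15 for Alas1 and -0.59 for Alas2, and the intervals of the uncalled enzymes lie between -0.22 and 0.32.

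In the plot of differences in pathway order, Alad stands apart from the other enzymes shown. Of the 6 synthesis members other than Alad, 1 was called higher, none lower, and their median log2 difference was -0.038. A p that missed the threshold does not show that these genes were equal in the strains, but their intervals bound the difference. For Uros, Urod, Cpox, Ppox and Fech the 95% intervals ran from 0.86-fold at the lowest to 1.09-fold at the highest.

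The ratio of Alad counts to those of another enzyme in the same library does not depend on library size. In B6, Alad had 0.33 to 0.42 counts for each count of Alas1, and in D2 it had 0.91 to 0.97. For Fech the ratio was 0.27 to 0.32 in B6 and 0.79 to 0.85 in D2. For Uros it was 0.75 to 0.89 in B6 and 2.10 to 2.38 in D2. Against Alas1 and Fech, then, Alad stayed the less counted gene in both strains, and against Uros the order of the counts turned. These ratios depend on transcript length and are not ratios of molecules. For all 8 enzymes the strains did not overlap in this ratio, and the D2 over B6 fold ranged from 2.40 for Alas1 to 2.87 for Cpox. Each of the 8 two-sided exact permutation tests over mice gave p = 0.0079 (adjusted over the 8 ratios, 0.0079), the smallest that 5 against 5 mice allow. The 8 ratios share the Alad counts and are not independent of each other. Alad differed by 1.41 on the log2 scale and the other 8 members by -0.11 to 0.15. Separation of every ratio followed from that, so the 8 tests restate the Alad difference and are not further results.

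**Figure D3:**
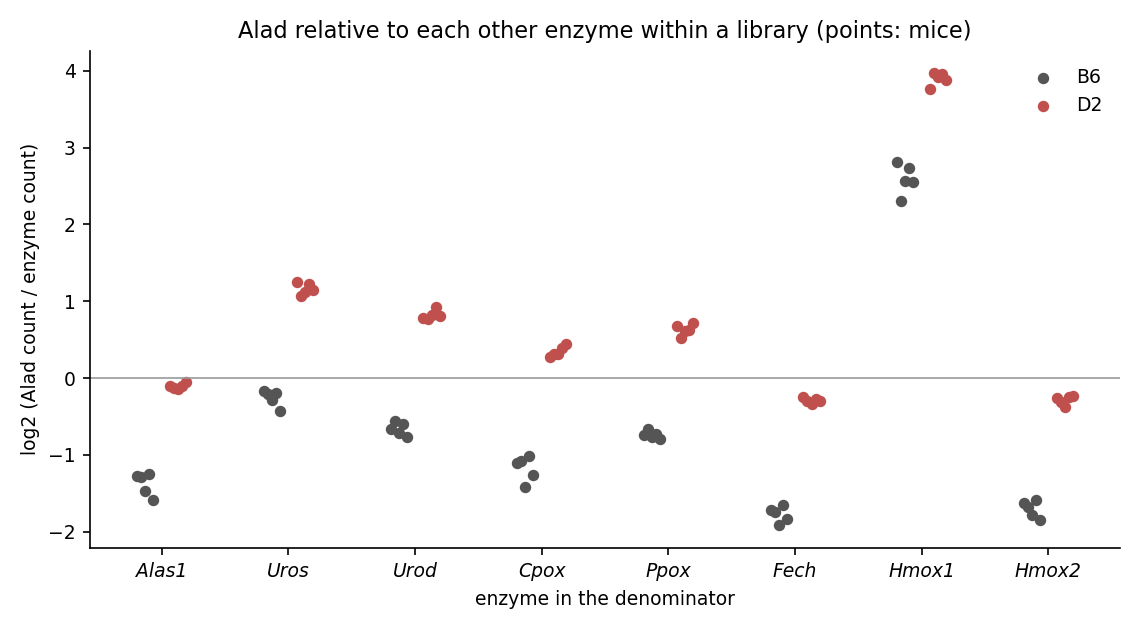
Log2 of the Alad count over the count of each other enzyme in the same library (vertical axis), 1 point per mouse, 5 B6 and 5 D2, for the enzyme named on the horizontal axis. D2 lies above B6 for every enzyme, by 1.26 for Alas1 to 1.52 for Cpox on the log2 scale, with no overlap.

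Levels were compared between genes as CPM per kilobase of the Ensembl canonical transcript. In B6 the order was Alas1 (13.6), Cpox (12.1), Ppox (10.6), Fech (9.44), Hmox2 (8.41), Urod (7.43), Uros (5.77), Alad (4.07) and Hmox1 (1.90 CPM per kilobase). Alad was thus the lowest synthesis member of B6. In D2 Alad was at 10.8 ± 0.26 CPM per kilobase (SD, n = 5), at rank 4 behind Alas1 (15.0), Cpox (11.2) and Ppox (10.9). Alas1 and Cpox overlapped over the mice in B6, as did Cpox with Ppox and Ppox with Alad in D2, and the other neighbours in each order were separate. The order rests on the length used. With the union of all annotated exons, Alad had rank 8 in B6 (2.67 CPM per kilobase) and rank 1 in D2 (7.09), next to Hmox2 at 7.04 in D2.

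Genes around Alad were examined because a gain of DNA could hold more than 1 gene. Of 16 tested genes whose start lies within 500 kb of the Alad start, 3 were called higher in D2 and 1 lower, with a median log2 difference of -0.0089. For so few genes, 4 called is near the 18.3% of all genes and the 23.8% of genes averaging 100 counts or more. Hdhd3, a haloacid dehalogenase-like hydrolase at chr4:62416018-62421704 in GRCm39, lies next to Alad with its start 16.9 kb away on the minus strand. Its level was 3.41, 3.27, 3.46, 3.86 and 3.51 CPM in B6 and 10.3, 10.2, 11.7, 10.5 and 10.1 CPM in D2. The strains were far apart, as they were for Alad, and the log2 difference was 1.59 ± 0.066 (SE), or 3.02-fold with a 95% interval of 2.73 to 3.33 (edgeR, adjusted p = 4.3e-09). Alad counts per Hdhd3 count were 4.80 to 5.69 in B6 and 3.96 to 4.85 in D2, so the ratio was lower in D2 with an overlap of the ranges. That difference was -0.18 on the log2 scale (two-sided exact permutation test, p = 0.016).

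Among the other neighbours the called differences were smaller than those of this pair. On the side of Hdhd3, Bspry, a B-box and SPRY domain gene 40.3 kb away with a mean of 109.6 counts, was at 0.965, 1.29, 1.03, 1.42 and 1.14 CPM in B6 and 0.892, 0.823, 0.857, 0.949 and 0.850 CPM in D2. All D2 mice lay below B6, narrowly, and the gene was called lower at -0.42 on the log2 scale (edgeR, adjusted p = 0.032), a call that held in 4 of 10 fits made without 1 mouse each. Next to it, Wdr31 was not called (-0.059, adjusted p = 0.73) and Rnf183, with 0 to 7 counts per library, was at 0.92 (adjusted p = 0.38). On the other side Pole3, a subunit of DNA polymerase epsilon whose start is 5.04 kb away, was at 19.9 to 20.2 CPM in B6 and 21.96 to 23.25 CPM in D2. The strains did not overlap, at a log2 difference of 0.18 ± 0.034 (SE) and an adjusted p of 0.0019. 4933430I17Rik, whose start is 4.78 kb from that of Alad on the same side, was at 0.40 (adjusted p = 0.075). Further away, Rgs3, a regulator of G protein signalling, was at -0.12 (adjusted p = 0.48). Gm11210, with 0 to 16 counts per library, was at -1.80 (adjusted p = 0.16). Zfp618, 445 kb away, was the remaining called gene (0.36, adjusted p = 0.0090). Without B6 replicates 3 and 5, Wdr31 (-0.20, adjusted p = 0.038) and Cdc26 (-0.19, adjusted p = 0.0080) were called lower too.

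**Figure D4:**
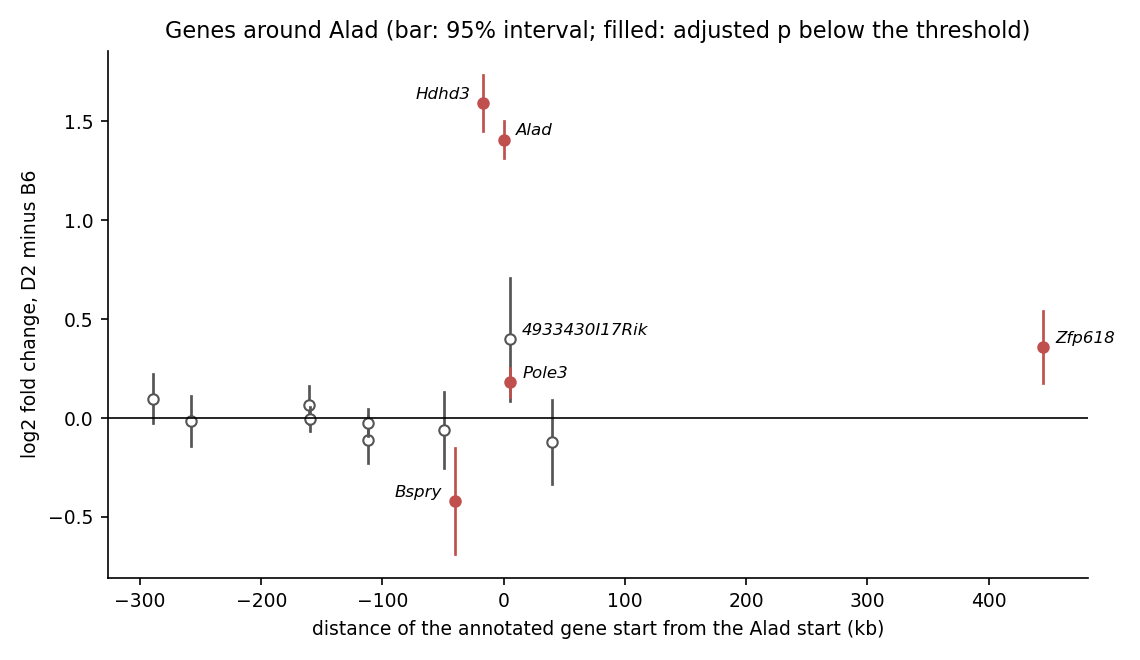
Log2 fold change of D2 minus B6 (vertical axis) with its 95% interval for Alad and the tested genes within 500 kb that averaged 10 counts or more, by the distance between annotated starts in kb (horizontal axis, negative towards Hdhd3). Filled points were called, and Alad (1.41) and Hdhd3 (1.59) lie far above the rest, of which the highest is 0.40.

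The pathway list held 49 genes written from general knowledge of heme and iron handling. All 49 were in the table, 8 were called higher in D2 and 7 lower, and the median log2 difference was 0.0090. The share called, 15 of 49, exceeds both the 18.3% of all genes and the 23.8% of genes averaging 100 counts or more. The list was not tested as a set. The 3 genes of heme A and heme C formation (Cox10, Cox15 and Hccs) were not called, nor were Blvra and Blvrb, the biliverdin reductases. Blvra was at 10.4 to 11.9 CPM in B6 and 11.6 to 12.7 CPM in D2 (adjusted p = 0.45), and Blvrb was at 5.45 to 6.53 CPM in B6 and 5.53 to 6.18 CPM in D2 (adjusted p = 0.94).

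Among the genes of mitochondrial supply and porphyrin transport, the mitoferrin Slc25a28 and the transporter Abcb10 were called higher, by 0.13 and 0.14 on the log2 scale, and the mitoferrin Slc25a37 fell by 0.13. The call of Abcb10 held in 3 of 10 fits made without 1 mouse each and was lost with the replicate block, and that of Slc25a37 was lost with total counts as the library size (-0.098, adjusted p = 0.083). The 2 mitoferrin genes, both importers of iron into mitochondria, thus differed in opposite directions.

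Of 10 genes of heme transport and binding, 1 was called higher and 3 lower. Hebp1, a cytosolic heme-binding protein, was at 18.2 to 21.6 CPM in B6 and 11.3 to 13.4 CPM in D2. The strains were well apart, and its log2 difference of -0.68 ± 0.057 (SE) was the largest fall of the list (edgeR, adjusted p = 2.5e-06). Flvcr1, described as a heme exporter and also as a choline transporter, was higher by 0.32 ± 0.052 (SE) with no overlap (17.5 to 20.5 CPM in B6, 22.4 to 24.8 CPM in D2, adjusted p = 0.0007). Slc48a1, which moves heme out of lysosomes, was called lower at -0.17 (adjusted p = 0.037), and the call was lost without B6 replicates 3 and 5 (-0.099, adjusted p = 0.15). Pgrmc2, a membrane protein that binds heme, was the third called lower (-0.099, adjusted p = 0.039), a call that held in 4 of 10 fits made without 1 mouse each and was lost with total counts as the library size (-0.068). Hebp2 was at -0.50 and not called (adjusted p = 0.083), but was called by DESeq2 (-0.50, adjusted p = 0.038) and without B6 replicates 3 and 5 (-0.64, adjusted p = 0.040).

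Of 10 regulators, 3 were called higher and 1 lower. Bach1, a heme-binding repressor of Hmox1, was at 18.4, 18.0, 17.5, 16.7 and 18.6 CPM in B6 and 21.2, 21.1, 20.5, 20.1 and 18.3 CPM in D2. D2 replicate 5 lay within the B6 range and the other D2 mice above it, with a log2 difference of 0.18 ± 0.050 (SE, adjusted p = 0.023), a call that held in 5 of 10 fits made without 1 mouse each. Nfe2l2, the activator that opposes Bach1 at Hmox1, was at 12.1 to 13.5 CPM in B6 and 10.7 to 13.5 CPM in D2 (adjusted p = 0.59). Ppargc1a, a coactivator that raises Alas1 expression in fasting liver, was at 52.0 to 60.5 CPM in B6 and 62.5 to 81.1 CPM in D2, with no overlap (0.25 ± 0.070 SE, adjusted p = 0.024), and its call held in 7 of those 10 fits. Clpx, a mitochondrial unfoldase that acts on aminolevulinate synthase, was higher by 0.13 (adjusted p = 0.019), and at 0.091 (adjusted p = 0.094) without B6 replicates 3 and 5. Eif2ak1, the heme-regulated kinase of translation initiation, was at 68.8 to 75.1 CPM in B6 and 58.6 to 64.3 CPM in D2 (-0.19 ± 0.037 SE, adjusted p = 0.0025).

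Of 9 iron genes, 1 was called in each direction. Steap3, an endosomal iron reductase, was at 5.05 to 5.97 CPM in B6 and 6.34 to 7.70 CPM in D2 (0.34 ± 0.073 SE, adjusted p = 0.0053). Fth1, the heavy chain of ferritin, was at 934 to 1278 CPM in B6 and 758 to 886 CPM in D2 (-0.44 ± 0.083 SE, adjusted p = 0.0020). The value of Fth1 is uncertain because the mouse genome holds many near-identical copies of it that can share reads. B6 replicates 3 and 5 were its highest mice, and without them the difference was -0.31. Slc11a2, an iron importer that was not called (-0.078), was called lower without those 2 mice (-0.11, adjusted p = 0.040). With all mice kept it was also called lower with edgeR's expression filter (-0.084, adjusted p = 0.038). The same held with at least 10 counts in every sample (-0.082, adjusted p = 0.041). The globins Ngb (0.54, edgeR, adjusted p = 0.52) and Cygb (0.027) were not called. Ngb varied widely, at 0.86 to 6.74 CPM in B6 and 3.58 to 7.91 CPM in D2. It was called with the cortical marker level as a covariate.

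**Figure D5:**
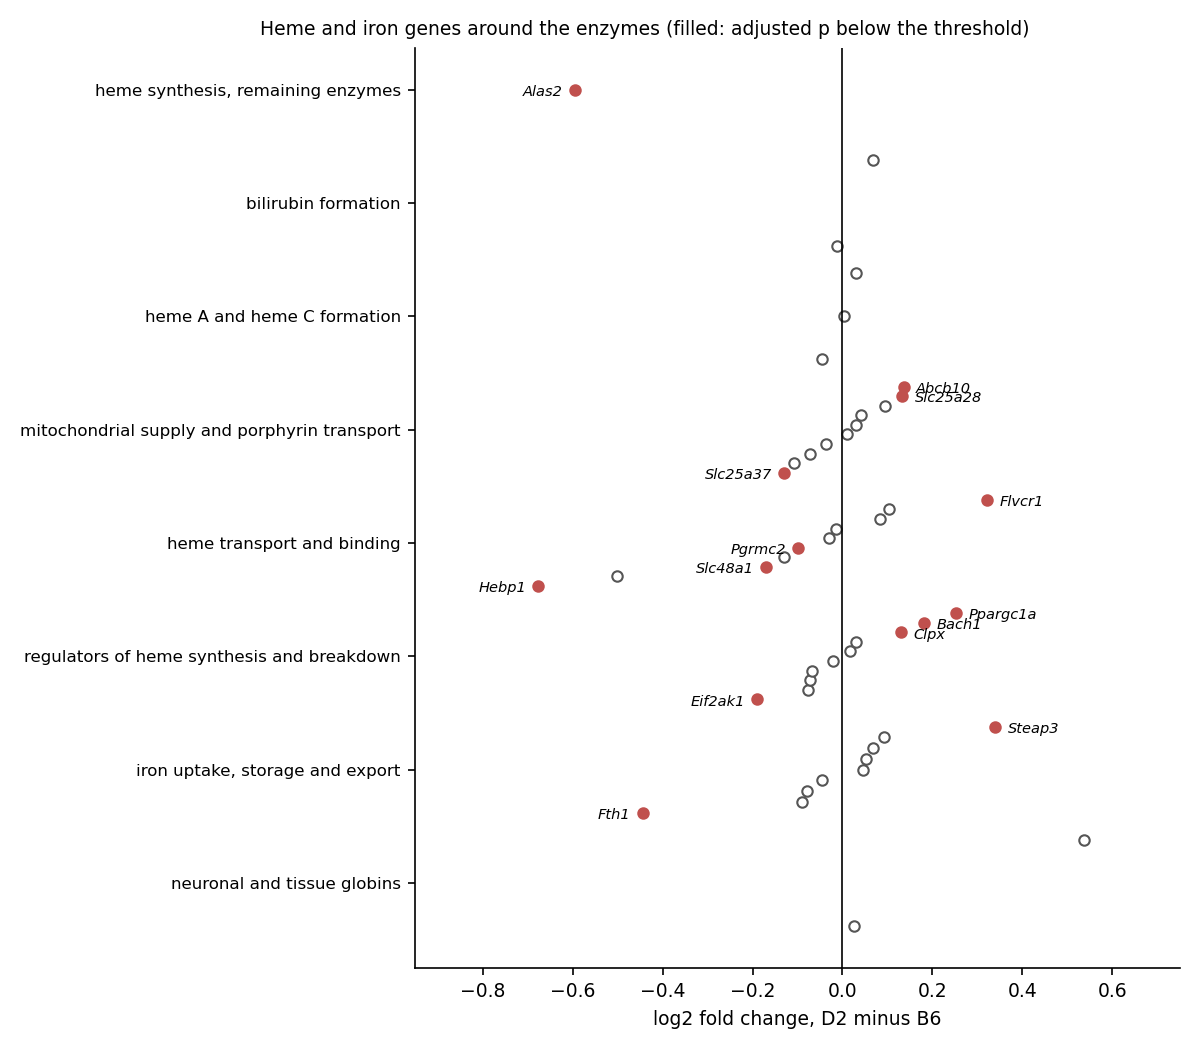
Log2 fold change of D2 minus B6 (horizontal axis) of the reported heme and iron genes by class (vertical axis), 1 point per gene, spread by rank within a class. Filled and named points were called, from -0.68 for Hebp1 to 0.34 for Steap3.

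Alas2, the erythroid aminolevulinate synthase, was also called and is an erythroid marker as well. Its level was 2.47, 2.29, 3.50, 2.91 and 3.86 CPM in B6 and 2.60, 1.75, 2.06, 1.31 and 2.24 CPM in D2. The D2 mice were low, with 4 of them below every B6 mouse, and the highest B6 values were those of replicates 3 and 5. The log2 difference was -0.59 ± 0.19 (SE, adjusted p = 0.045), and -0.36 (adjusted p = 0.22) without those 2 libraries. The call held in 3 of 10 fits made without 1 mouse each. In bulk tissue, fewer cells of a type and less RNA per cell cannot be told apart.

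Erythroid markers moved with Alas2. Of 10 listed, 9 were in the table (Ahsp was not), 4 were called lower and none higher, and their summed level was 72.0 to 99.8 CPM in B6 and 42.3 to 78.1 CPM in D2. Hba-a2 was at 7.18 to 11.1 CPM in B6 and 0.172 to 0.293 CPM in D2, and Hbb-bt at 4.64 to 6.77 CPM in B6 and 1.58 to 2.91 CPM in D2, while their near-identical paralogs Hba-a1 (log2 difference 0.085, adjusted p = 0.78) and Hbb-bs (-0.36, adjusted p = 0.13) were not called. Reads can be split between these paralogs in a strain-dependent way, so their values are uncertain. Slc4a1 and Epb42 had means of 10.8 and 1.7 counts, near the limit of detection, and Epb42 was called lower. The part of erythroid RNA in the Alas2 difference was not tested.

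Hmox1 is also high in macrophages, so the microglia and macrophage list was read beside it. Its 9 genes summed to 239 to 268 CPM in B6 and 213 to 259 CPM in D2. P2ry12 was called higher (0.26) and C1qa lower (-0.44). Cx3cr1, Tmem119, Csf1r, Aif1, Mrc1, Cd163 and Lyve1 were not called. Other lists differed between the strains as well, with 4 of 6 oligodendrocyte (Mog, Mobp, Mag and Cnp) and 5 of 8 striatal neuron markers (Drd2, Adora2a, Penk and Rgs9 among them) lower in D2 and none higher. Over all genes 9.83% were called lower. The summed oligodendrocyte level was highest in B6 replicates 3 and 5, at 6202 and 6171 CPM. It was 4292.5 to 5148.6 CPM in the other B6 mice and 3242 to 4734 CPM in D2. The striatal sum was lowest of B6 in those 2 mice, at 3647 and 3615 CPM, against 3058 to 3727 CPM in D2. Fits of these markers without the 2 mice are not reported here. The part of these cell types in the differences of the enzymes was not tested.

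Several members share their position with another counted gene, and the strand setting of the counting is not given in the sources used here. Genes on the opposite strand overlapped Alas1 (4930500F10Rik, mean 242.5 counts), Uros (Bccip, 4288 counts), Urod (Zswim5, 4479 counts), Cpox (Gpr15, 0.7 counts), Ppox (B4galt3, 4802 counts, and Gm57119, 3.0 counts) and Hmox2 (Cdip1, 23412 counts). Of these, B4galt3 was called, at -0.21 on the log2 scale, and the others were not. Alad, Fech and Hmox1 had no such neighbour.

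The genes whose pattern over the 10 mice was most like that of Alad were sought among 15380 genes that averaged 100 counts or more and had no count of 0. The measure was the root mean square difference of log2 CPM, each gene relative to its own B6 mean. It therefore mainly picks genes whose strain difference is near the 1.41 of Alad, and does not show variation shared between mice of a strain. The nearest were Arhgap4 on chromosome X (0.083), Wdfy1 on chromosome 1 (0.083) and Sfi1 on chromosome 11 (0.087). The mean level of Arhgap4 was 5.94 CPM in B6 and 15.0 CPM in D2, that of Wdfy1 24.7 and 60.7 CPM, and that of Sfi1 42.5 and 107 CPM. The next 7 genes lay at 0.098 to 0.14, and Hdhd3 was not among these 10.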

How the data were processed

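RNA from the NAc of 5 B6 and 5 D2 mice was sequenced as paired reads from poly-A libraries, 1 per mouse. The deposited table holds raw counts for each gene. Per the labels and methods, the authors used fastp for trimming, STAR 2.7.10b for alignment of both strains to the C57BL/6J genome (GRCm39), SAMtools 1.6 and featureCounts, and had removed genes with a median count of 0. D2 reads that differ from the B6 sequence may align less well. Here the counts were fitted with edgeR 4.0.16 in R 4.3.3 (TMM, quasi-likelihood F test, two-sided, strain only), with Benjamini-Hochberg adjustment over 29883 genes, a threshold of 0.05, and standard errors taken from F and the log2 fold change. The scripts were tested on simulated data. Gene positions came from GENCODE M39, transcripts were matched to the genome with minimap2 2.31, and promoter windows came from RefSeq (GRCm38.p6), matched by symbol for all members but Hmox1. Ratios per mouse were compared with exact permutation tests over 252 assignments of mice.
Named genes were the 9 members, set pathway genes (Alas2, Blvra, Blvrb, Bach1, Nfe2l2) and the 5 called pathway genes of largest change in each direction that averaged 100 counts or more, the 4 nearest tested genes on each side of Alad and any called neighbour changed by 0.5 or more (log2), the 3 genes nearest to it in profile, and erythroid and macrophage markers. Some genes under this rule are not reported here. Other named genes (Hebp2, Zfp618, Cdc26, Clpx, the mitoferrins and the like) were chosen after their values were seen. The members and lists were chosen with earlier results of these data known. Alternatives were other scalings and filters, DESeq2 1.42.0, the replicate number as a block and each mouse left out, and a cortical marker covariate and the omission of B6 replicates 3 and 5 were added after seeing the data. Mice with the same replicate number were not paired.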

Additional observations from a re-analysis of the deposited data

Results flagged for a closer look

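In 7 of 62 groups of 5 mice, a strain's levels of one named gene, 1 mouse lay far from the other 4 by Dixon's criterion, where chance flags about 1 in 20 groups. Among the enzymes, Cpox was at 45.2 CPM in B6 replicate 3, against 38.5 to 40.5 CPM in the other B6 mice. Hmox1 was at 3.75 CPM in B6 replicate 2, against 2.58 to 2.89 CPM in the others. Blvra was at 10.4 CPM in B6 replicate 1, against 11.8 to 11.9 CPM in the others. Eif2ak1 was at 58.6 CPM in D2 replicate 2, against 63.0 to 64.3 CPM in the others. Of the genes beside Alad, Hdhd3 was at 11.7 CPM in D2 replicate 3, against 10.1 to 10.5 CPM in the others. Rnf183 was at 0.063 CPM in D2 replicate 2 and Gm11210 at 0.15 CPM in B6 replicate 2, both at a few reads per library.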

How the results depend on the processing

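The log2 difference of Alad ranged from 1.35 to 1.44 over 20 alternatives and was called in all 20, and that of Alas1 ranged from 0.12 to 0.19 and was called in 19. With a mouse left out, the number of members called was 1 to 2 (1 without D2 replicate 3), that of the pathway list 10 to 14 and that of the neighbours 3 to 6. Over the other settings the pathway list gave 10 to 20, the most with the cortical marker covariate. Cpox was called with that covariate (-0.13). The near-zero differences turned sign for Uros (0.023) and Hmox2 (0.022) with total counts as the library size, and without B6 replicates 3 and 5 (0.00083 for Uros and 0.0075 for Hmox2), and Uros lay between -0.027 and 0.0052 with a mouse left out. Same-numbered mice did not deviate together in a consistent direction. The correlations were 0.37, -0.42, 0.37, 0.034 and -0.29 for replicates 1 to 5. With the replicate number as a block, the members called stayed 2 (Alad 1.41, Alas1 0.15), the pathway list gave 10 and the neighbours 3. Of the 8 ratios, 0 passed when same-numbered mice were treated as pairs, since an exact sign-flip test of 5 pairs cannot go below p = 0.0625. The 3 genes nearest to Alad were also the 3 nearest by the median absolute difference. The calls of several genes with an adjusted p near the threshold changed with the mice or the setting. Alas2 was called in 12 of 20 alternatives (adjusted p 0.0094 to 0.22), Slc48a1 in 10 (0.0023 to 0.15), Bspry in 12 (0.014 to 0.081), Bach1 in 14 (0.0045 to 0.061) and Ppargc1a in 17 (0.0054 to 0.060). Leaving out 1 mouse ended the call of Alas2 for each of B6 3 to 5 and D2 2 to 5 (-0.64 to -0.48, adjusted p 0.060 to 0.11) and of Bach1 for B6 3 and 4 and D2 1 to 3 (0.16 to 0.17, adjusted p 0.056 to 0.061). It did so for Ppargc1a without B6 2, B6 4 or D2 3 (0.22 to 0.24, adjusted p 0.056 to 0.060), for Slc48a1 without B6 2, 3 or 5 or D2 2 to 5 (-0.18 to -0.14, adjusted p 0.051 to 0.094) and for Bspry without B6 2 or 4 or D2 1, 2, 3 or 5 (-0.43 to -0.34, adjusted p 0.054 to 0.081). Over all fits without 1 mouse, Abcb10 ranged from 0.11 to 0.15 and lost its call without B6 1, 3 or 4 or D2 1 to 4, Pgrmc2 from -0.11 to -0.080 and lost it without B6 2 or 4 or D2 1, 2, 4 or 5, and Clpx from 0.11 to 0.14 and lost it without B6 3 or 5. With the replicate block these 3 were not called either (adjusted p 0.056 to 0.10). 4933430I17Rik was called without B6 1 (0.51, adjusted p = 0.019), with at least 10 counts in every sample (0.39, adjusted p = 0.0499) and with the cortical covariate (0.46, adjusted p = 0.036), under which Rgs3 was called lower as well (-0.19, adjusted p = 0.036). Hmox1, at 269 to 421 counts, is the member whose difference is least well bounded.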
